A study of Mus musculus with 20 samples.

Results

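The genes of major histocompatibility complex (MHC) antigen presentation were followed in RNA of the mouse RPE-choroid, the outer eyecup that holds the retinal pigment epithelium (RPE) and the vascular choroid. The 10 genes H2-K1, H2-D1, B2m, Tap1, Psmb8, H2-Aa, H2-Ab1, H2-Eb1, Cd74 and Ciita were taken by their symbols from a table of 24411 genes. All 10 had an entry and all 10 were among the 18807 genes tested. The 20 libraries, 5 per group, came from C57BL/6 mice that were weaned at about day 28 and then kept for 12 weeks on a vitamin A sufficient diet (VAS, 4 IU per g) or a vitamin A deficient diet (VAD, 0 IU per g). The 4 groups were VAS WT, VAD WT, VAS Stra6-/- and VAD Stra6-/-, where Stra6-/- mice are knockouts that lack the membrane transporter that takes up retinol at the basal side of the RPE. By the study's methods the WT mice came from a supplier and the Stra6-/- mice from the authors' colony, and the eyecups of each mouse made 1 sample after removal of the front of the eye and of the neural retina.

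MHC class I molecules are made of a heavy chain, here H2-K or H2-D, and the invariant light chain beta 2-microglobulin, the product of B2m. They show peptides from inside the cell to CD8 T cells. The peptides are cut by the proteasome, in which Psmb8 is an interferon-inducible catalytic subunit, and are carried into the endoplasmic reticulum by the transporter TAP, of which Tap1 encodes a subunit. MHC class II molecules, made of an alpha and a beta chain, show peptides taken up from outside to CD4 T cells, and they are made mainly by macrophages, dendritic cells and B cells. Cd74 encodes the invariant chain that holds the class II groove closed until it reaches an acidic compartment, and Ciita encodes the coactivator needed for class II transcription. In the healthy eye class II is found chiefly on macrophages and dendritic cells of the choroid and on a few microglia.

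Class I, class II and B2m genes are known to share a promoter module in which a Y box is bound by the factor NF-Y, so the sequence just before the start of 5 of these genes was set out to show where that box lies. The 150 bases before the RefSeq start of each gene (GRCm38.p6, 5′ to 3′ on the strand of the gene) are printed in lower case, with the Y box core, ATTGG or its complement CCAAT, in capitals.
H2-K1 (chr17:34000348-34000497, minus strand): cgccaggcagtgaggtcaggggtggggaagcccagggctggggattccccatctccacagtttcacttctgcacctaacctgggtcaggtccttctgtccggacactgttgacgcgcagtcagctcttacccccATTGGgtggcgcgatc
H2-D1 (chr17:35262944-35263093, plus strand): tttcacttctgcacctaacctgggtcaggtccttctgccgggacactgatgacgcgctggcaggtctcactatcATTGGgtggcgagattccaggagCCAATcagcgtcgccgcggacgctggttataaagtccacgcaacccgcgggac
B2m (chr2:122147537-122147686, plus strand): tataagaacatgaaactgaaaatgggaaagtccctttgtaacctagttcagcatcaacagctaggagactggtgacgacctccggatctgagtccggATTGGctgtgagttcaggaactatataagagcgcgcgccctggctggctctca
H2-Aa (chr17:34287824-34287973, minus strand): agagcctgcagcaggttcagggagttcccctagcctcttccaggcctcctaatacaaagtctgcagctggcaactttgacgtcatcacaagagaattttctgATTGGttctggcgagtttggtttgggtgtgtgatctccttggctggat
H2-Eb1 (chr17:34305717-34305866, plus strand): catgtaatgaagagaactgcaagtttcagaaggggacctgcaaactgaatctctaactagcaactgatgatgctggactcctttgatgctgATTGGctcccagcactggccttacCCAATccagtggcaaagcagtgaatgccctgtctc

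RefSeq promoters were at hand for 7 of the 10 genes, and the starts used for H2-D1 and Psmb8 lie well inside the GENCODE gene. In the 250 bases before the start, counted from -1 at the base next to it, ATTGG stood at -53 to -49 in B2m, at -48 to -44 in H2-Aa and at -59 to -55 in H2-Eb1, 3 of the genes that rose in the VAD Stra6-/- libraries. It stood at -76 to -72 in H2-D1 and, for the start shown, at -16 to -12 in H2-K1, 2 genes that were not called higher against VAS Stra6-/-. H2-K1 has another RefSeq start, from which the same box lies at -30 to -26, with a CCAAT at -6 to -2. H2-D1 had a further CCAAT at -53 to -49 and H2-Eb1 at -35 to -31. In Tap1 the only match was a CCAAT at -222 to -218, and Psmb8 held none in this window, which for Psmb8 lies within the GENCODE gene. On either strand the core was found in 33.8% of 32851 promoters of the same length. The core of the neighbouring X2 box, TGACG, found in 17.8% of promoters, stood before the Y box in H2-K1, H2-D1, B2m and H2-Aa and was also present in Tap1. A match is a run of letters and not a measured binding site.

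Some libraries stood apart. Stra6 had normalized values of 2414 to 2742 in VAS WT, 669 to 1529 in VAD WT, 564 to 694 in VAS Stra6-/- and 1973 to 2393 in VAD Stra6-/-, so its raw level in VAD Stra6-/- was above that of VAD WT. Stra6 is expressed in the RPE, and the RPE markers were also highest in VAD Stra6-/-. As a share of the summed value of 8 RPE markers, Stra6 was 2.35% ± 0.175 (mean ± SD, n = 5) in VAS WT and 2.21% ± 0.183 in VAD WT, against 0.514% ± 0.0392 in VAS Stra6-/- and 0.435% ± 0.0376 in VAD Stra6-/-, so on that scale every Stra6-/- library lay below every WT library. The 5 VAD Stra6-/- libraries held both the female transcript Xist (3569.8 to 4279.6) and the male transcript Ddx3y (741 to 969.7). Whether each of these libraries came from 1 mouse, as the methods state, was not tested. VAS WT libraries had the Ddx3y of males and VAS Stra6-/- libraries the Xist of females, so sex and genotype cannot be told apart in that comparison. The VAD Stra6-/- libraries were higher in Ddx3y than VAS Stra6-/-, by 9.56 on the log2 scale. Sex and diet therefore cannot be told apart between the Stra6-/- groups, and the difference in diet effect between the genotypes shares this limit. Replicates 2 and 4 of VAD WT had Xist at 10912 to 11767 against 174 to 234 in replicates 1, 3 and 5. The counts of the 10 genes called are given with and without them. Other results that rest on VAD WT, among them the marker counts, are given for all 5 libraries unless a setting is named. The corneal keratin Krt12 stood at 113908 to 400653 in the other 15 libraries and at 2179 to 3433 in the VAD Stra6-/- libraries, and the RPE enzyme gene Rpe65 at 1107 to 5979.6 against 42395 to 45414. Libraries held 13331903 to 21878614 reads. Of the 10 genes, 5 overlap a gene on the opposite strand (B2m and Patl2, Tap1 and Psmb9, Psmb8 and Gm20496, H2-Eb1 and Gm20513, Ciita and Dexi), and whether the counting used strand is not given in the sources used here. Values are the reads of a gene divided by 1 size factor per library, and differences between groups are log2 fold changes on the log2(value + 1) scale, given as the estimate ± its standard error. They came from limma fitted to all genes, with p adjusted by the Benjamini-Hochberg method, and a gene is called where that p is under 0.05.

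Per kilobase of exon, the antigen presentation genes spanned a wide range of levels, from B2m to Ciita. B2m ranked first in every group, at 9728 ± 597 (mean ± SD, n = 5, normalized value per kb) in VAS WT. H2-D1 followed at 3698 ± 38.7, Cd74 at 2801 ± 121 and H2-K1 at 2117 ± 89.9 in that group. The class II chains lay lower, with H2-Eb1 at 826 ± 20.5, H2-Ab1 at 676 ± 68.0 and H2-Aa at 432 ± 30.5 per kb. Psmb8 was at 414 ± 30.7 and Tap1 at 189 ± 19.4 per kb, while Ciita was at 2.13 ± 0.892. H2-Aa and Psmb8 in VAS WT lay within 1 SD of each other, as did these genes in VAD WT and H2-Eb1 and H2-Ab1 in VAD WT, and every other pair of neighbours in the order was further apart than that. In the VAD Stra6-/- libraries Cd74, at 5221 ± 482 per kb, stood above H2-D1, at 3254 ± 163, which reversed their order in the other groups.

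**Figure D1:**
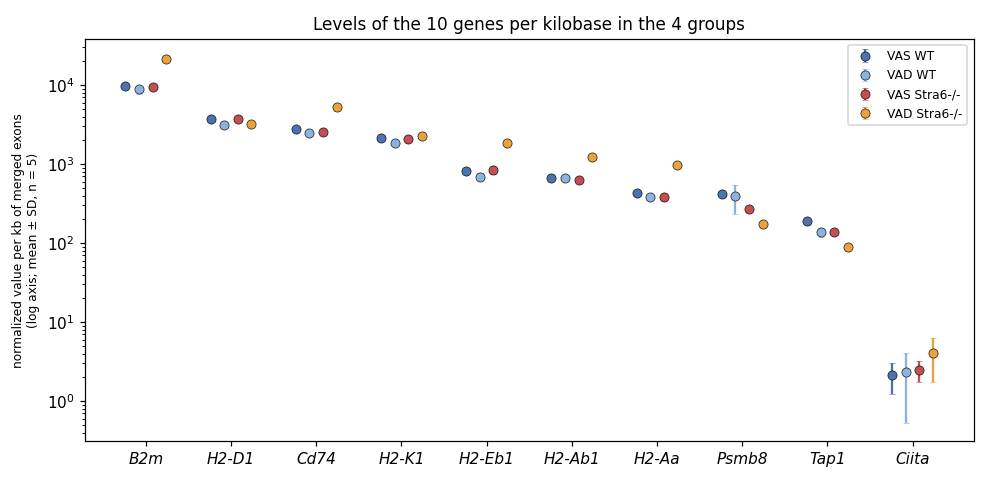
Mean normalized value per kb of merged exons (log axis) of the 10 genes in the 4 groups, with the SD of 5 libraries as bars, most of which are smaller than the points. B2m was highest and Ciita lowest in every group, and the orange points of the VAD Stra6-/- libraries lay above the others for B2m, Cd74 and the class II chains and below them for Psmb8 and Tap1.

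The VAD Stra6-/- libraries held more RNA of B2m, Cd74 and the class II chains than the VAS Stra6-/- libraries, whereas the heavy chain gene H2-D1 and the peptide supply genes Tap1 and Psmb8 were lower. Of the 10 genes, 5 rose and 3 fell in this comparison, in which 53.2% of all genes tested were called, 24.4% up and 28.8% down. Their median log2 fold change was 0.77, against -0.07 over all genes. Against VAD WT, the same libraries had 6 of the genes higher and 2 lower, where 55.9% of all genes were called, 26.2% up and 29.6% down. The median was 0.97, against -0.05 over all genes. Both comparisons contain the same 5 libraries, so they are not independent. In bulk RNA, more cells of a type and more RNA of a gene per cell cannot be told apart, and this holds for each difference given here.

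The effects of genotype on the VAS diet and of diet in WT mice were smaller, and Tap1 was the gene called in both. In VAS Stra6-/- against VAS WT, 2 of the 10 genes were called, Tap1 and Psmb8, both lower, where 26.6% of all genes were called, 15.9% up and 10.8% down. The median of the 10 genes was -0.07, against 0.02 over all genes. In VAD WT against VAS WT, 4 were called, H2-K1, H2-D1, Tap1 and H2-Eb1, all lower, where 8.78% of all genes were called, 3.29% up and 5.50% down. The median of the 10 genes was -0.20, against 0.00 over all genes. The diet effect differed between the genotypes for 6 of the 10 genes, all more positive in Stra6-/-, where 44.2% of all genes had such a difference, 19.5% in that direction and 24.8% in the other.

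With VAD WT replicates 2 and 4 left out, 8 of the 10 genes were called between VAD WT and VAS WT, 7 lower and Psmb8 higher, where 37.9% of all genes were called. Between VAS Stra6-/- and VAS WT 4 of the 10 were then called, where 40.0% of all genes were called. That comparison holds no VAD WT library, so its log2 fold changes stayed the same and only the spread, pooled over the groups, changed. The VAD Stra6-/- libraries then gave 9 calls against VAS Stra6-/- (60.7% of all genes) and 9 against VAD WT (63.1%), and 8 genes had a difference in diet effect (54.7%). With VAD WT replicates 1, 3 and 5 left out instead, a setting chosen after seeing the data, the calls were 5 for VAD WT against VAS WT (32.8% of all genes) and 4 for VAS Stra6-/- against VAS WT (42.1%). They were 9 and 8 for the VAD Stra6-/- libraries against VAS Stra6-/- (62.7%) and VAD WT (52.2%), and 6 for the difference in diet effect (50.6%). B2m, H2-Aa, H2-Ab1, H2-Eb1 and Cd74 were called higher in the VAD Stra6-/- libraries in both of these settings.

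**Figure D2:**
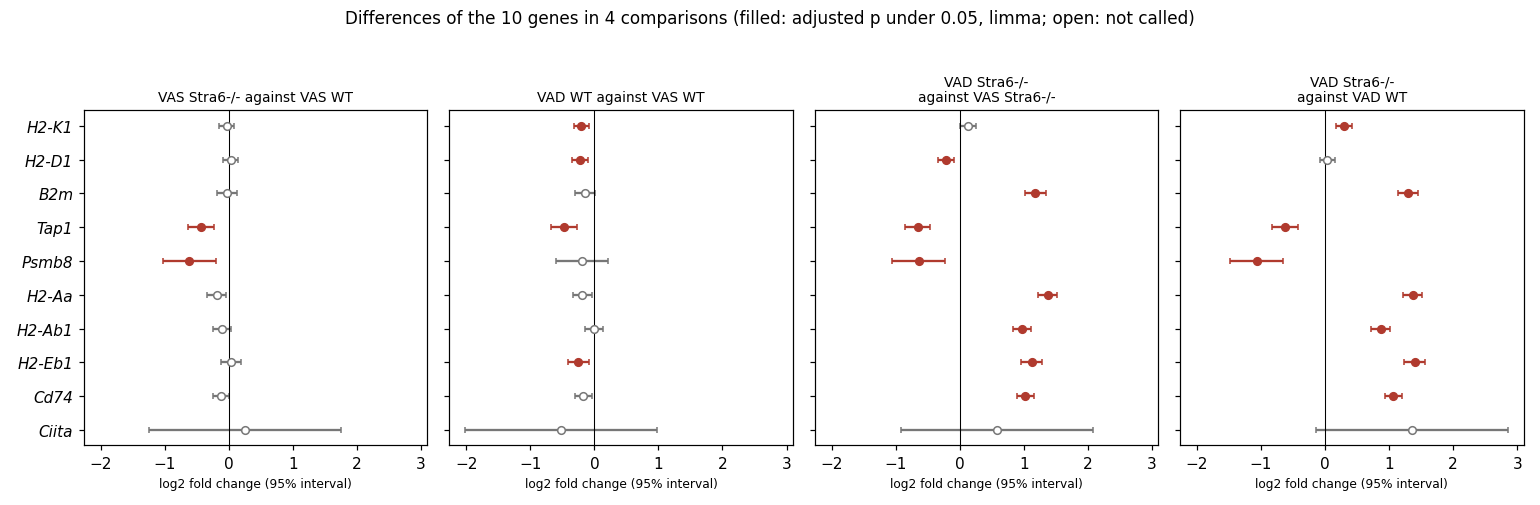
Log2 fold change of each gene with its 95% interval in 4 comparisons (limma, filled points at an adjusted p under 0.05, open points not called). In the 2 panels with the VAD Stra6-/- libraries the points for B2m, H2-Aa, H2-Ab1, H2-Eb1 and Cd74 lie right of 0 and those for Tap1 and Psmb8 left of it, and the interval of Ciita is the widest in every panel.

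The heavy chain genes differed little between groups, and their largest log2 fold change in the 4 comparisons between groups was the 0.29 of H2-K1 between the VAD Stra6-/- libraries and VAD WT. H2-K1 (chr17:33996017-34000347, GRCm38) encodes the H2-K heavy chain. Its normalized values in replicates 1 to 5 were 5928, 6593, 6345, 6215 and 6022 in VAS WT and 5359, 5668, 5183, 5369 and 5419 in VAD WT. They were 6028, 6069, 5643, 6387 and 6177 in VAS Stra6-/- and 6459, 6396, 6676, 6342 and 7228 in the VAD Stra6-/- libraries. VAD WT was the low group, below every VAS WT library, and overlapped VAS Stra6-/- at its upper end. The difference between VAD WT and VAS WT was -0.20 ± 0.0579 (adjusted p = 0.0303, limma), and that call was lost in 6 of 31 other settings, among them without VAS WT replicate 2 (adjusted p = 0.0657), VAS WT replicate 3 (0.0603) or VAD WT replicate 3 (0.0617). The VAD Stra6-/- libraries all lay above VAD WT, with a log2 fold change of 0.29 ± 0.0579 (adjusted p = 0.000188, limma). They were not called against VAS Stra6-/-, with a log2 fold change of 0.13 ± 0.0579 (adjusted p = 0.0715, limma) and overlapping values. That difference passed the threshold without VAD WT replicates 2 and 4 (adjusted p = 0.0133, limma) and in 5 of the 31 other settings in all.

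H2-D1 (chr17:35262730-35267499) encodes the H2-D heavy chain. Its values were 9555, 9652, 9393, 9491 and 9597 in VAS WT and 9396, 9729.7, 9516, 9988 and 9856 in VAS Stra6-/-. They were 7835, 8629, 7772, 8748 and 7909 in VAD WT and 8545, 8039.7, 8708, 7856 and 8811 in the VAD Stra6-/- libraries. Every library of both VAD groups lay below every library of both VAS groups. The log2 fold change with the VAD diet was -0.22 ± 0.0595 (adjusted p = 0.0204, limma) in WT and -0.21 ± 0.0595 (adjusted p = 0.00516, limma) between the Stra6-/- groups, and the test of a difference between these effects gave 0.01 ± 0.0842 (adjusted p = 0.913, limma). The call in WT was lost with only the 2 groups compared in the fit (adjusted p = 0.0722, limma). The genotype difference on the VAS diet was 0.02, with a 95% interval of -0.10 to 0.15, and its sign changed with the scaling. Within VAD WT, replicates 2 and 4 had the 2 highest values. Without them the VAD Stra6-/- libraries were called higher than VAD WT, at 0.10 (adjusted p = 0.0382, limma), against 0.04 ± 0.0595 (adjusted p = 0.621, limma) with them. The ratio of H2-K1 to H2-D1 reads was 0.593 to 0.685 in the other 15 libraries and 0.756 to 0.820 in the VAD Stra6-/- libraries. Of the 1953 windows of 150 bases in the H2-D1 transcript, 35 (1.79%) also occur in H2-Q1, and none of the windows of the other 9 genes occurs in another gene.

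B2m, on chromosome 2 (chr2:122147686-122153083), encodes the light chain shared by all class I molecules. Its values were 8567, 7489, 8718, 8345 and 8712 in VAS WT, 7207, 8714, 7162, 8252 and 6621 in VAD WT and 8059, 8606, 8409.8, 7991 and 7764 in VAS Stra6-/-. In the VAD Stra6-/- libraries they were 19455, 19391, 17534, 17802 and 18476. The first 3 groups overlapped one another, and the lowest VAD Stra6-/- library was above the highest of the rest. The mean rose 2.27-fold against VAS Stra6-/-, on the log2 scale 1.18 ± 0.0772 (adjusted p = 2.61e-11, limma), and 2.45-fold against VAD WT, on the log2 scale 1.29 ± 0.0772 (adjusted p = 6.6e-12, limma). The ratio of B2m to the sum of H2-K1 and H2-D1 was 0.461 to 0.610 in 15 libraries and 1.14 to 1.34 in the VAD Stra6-/- libraries. In VAD WT, replicates 2 and 4 had the highest B2m values. Without them VAD WT was called lower than VAS WT, at -0.26 (adjusted p = 0.000693, limma), and without replicates 1, 3 and 5 the difference was 0.02 (adjusted p = 0.833, limma).

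**Figure D3:**
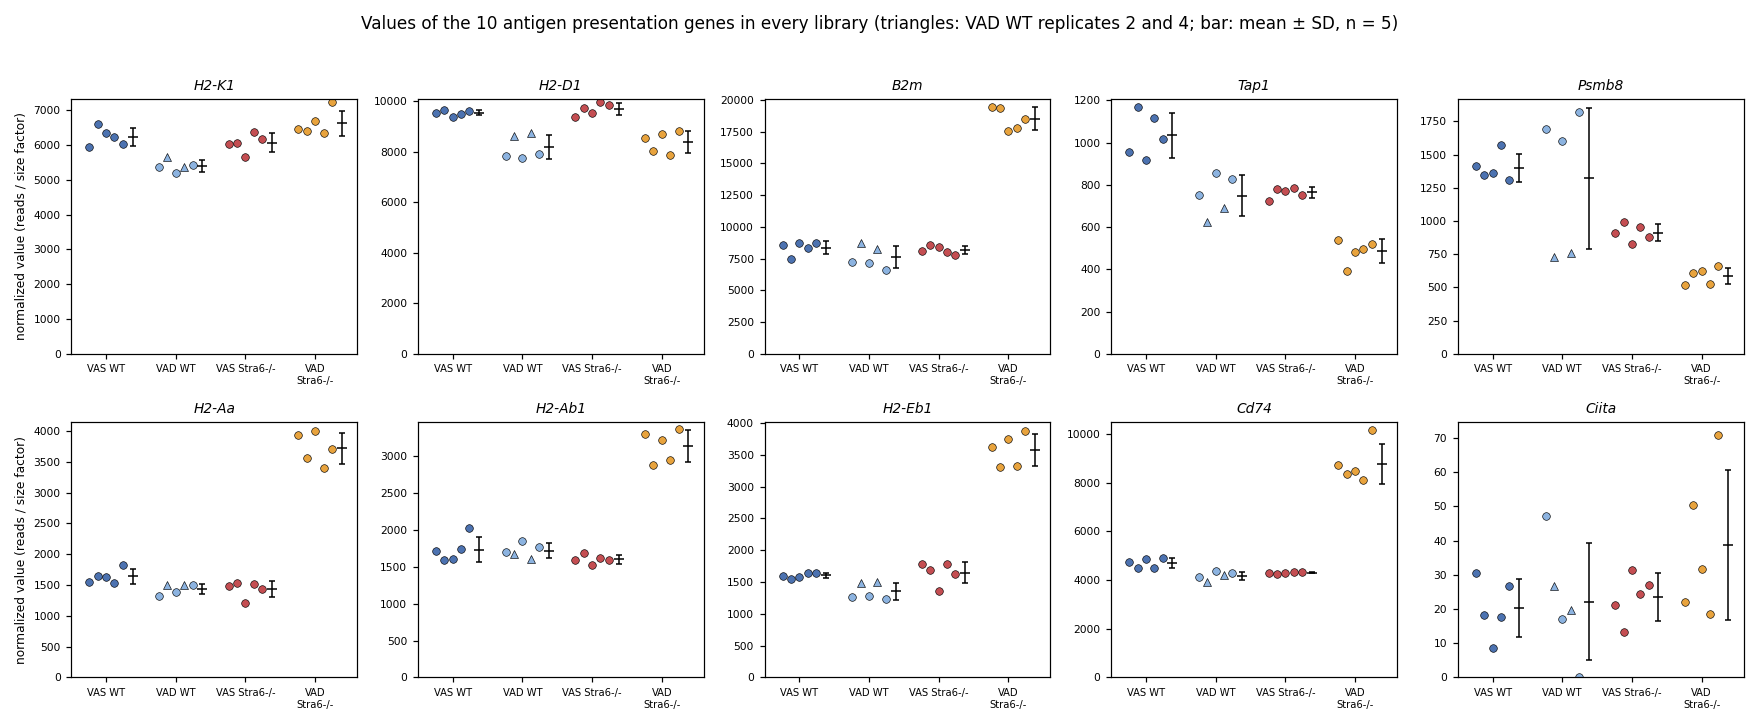
Normalized value (reads divided by the size factor, linear axes from 0) of each of the 10 genes in each of the 20 libraries, with the mean and SD of each group of 5 beside the points and VAD WT replicates 2 and 4 as triangles. The orange points of the VAD Stra6-/- libraries stand clear above all others for B2m, H2-Aa, H2-Ab1, H2-Eb1 and Cd74, and the triangles stand clear below the other VAD WT points for Psmb8.

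The peptide supply genes had their lowest values in the libraries where the class II genes had their highest. Tap1 (chr17:34187553-34197225) and Psmb8 (chr17:34197721-34201454) are neighbours in the MHC, 495 bases apart on the same strand. The Tap1 values were 957, 1169.6, 916, 1115 and 1018 in VAS WT and 751, 623, 856, 689 and 827 in VAD WT. They were 724, 782, 772, 787 and 754 in VAS Stra6-/- and 539, 394, 483, 494 and 519 in the VAD Stra6-/- libraries. VAS WT was the highest group and did not overlap any other, VAD WT and VAS Stra6-/- overlapped, and the VAD Stra6-/- libraries were below all the rest. The log2 fold change of Tap1 was -0.43 ± 0.0971 (adjusted p = 0.00203, limma) in VAS Stra6-/- against VAS WT. For diet in WT it was -0.47 ± 0.0971 (adjusted p = 0.00315, limma). The VAD Stra6-/- libraries differed by -0.66 ± 0.0971 (adjusted p = 6.03e-06, limma) from VAS Stra6-/- and by -0.62 ± 0.0971 (adjusted p = 1.23e-05, limma) from VAD WT. Tap1 was called in all 4 comparisons under all 31 other settings. The ratio of Tap1 reads to those of Tap2, the gene of the partner subunit, was 0.513 to 0.902 in 15 libraries and 0.316 to 0.451 in the VAD Stra6-/- libraries.

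Psmb8 values were 1414, 1350.2, 1359.8, 1574 and 1307 in VAS WT and 907, 995, 826, 956 and 877 in VAS Stra6-/-. They were 518, 605, 624, 525 and 659 in the VAD Stra6-/- libraries and 1695, 726, 1605, 758 and 1819.7 in VAD WT. The VAD WT libraries split into replicates 1, 3 and 5, above every VAS WT library, and replicates 2 and 4, below every VAS Stra6-/- library. The other 3 groups did not overlap. Psmb8 differed by -0.62 ± 0.199 (adjusted p = 0.0246, limma) between VAS Stra6-/- and VAS WT and by -0.64 ± 0.199 (adjusted p = 0.00954, limma) between the VAD Stra6-/- libraries and VAS Stra6-/-. The call between VAS Stra6-/- and VAS WT was lost without VAS WT replicate 4 (-0.58, adjusted p = 0.0617, limma), VAS Stra6-/- replicate 3 (-0.58, 0.06) or VAS Stra6-/- replicate 5 (-0.60, 0.0504). The adjusted p was 7.74e-07 without VAD WT replicates 2 and 4 and 1.8e-06 without replicates 1, 3 and 5 (limma), at the same log2 fold change as with all libraries. The pooled difference between VAD WT and VAS WT was -0.19 ± 0.199 (adjusted p = 0.626, limma). It was 0.29 without replicates 2 and 4 (adjusted p = 0.0105, limma) and -0.91 without replicates 1, 3 and 5 (adjusted p = 8.24e-07, limma), a reversal of direction. Against VAD WT, the VAD Stra6-/- libraries differed by -1.07 ± 0.199 (adjusted p = 9.91e-05, limma), which was -1.54 without replicates 2 and 4 and -0.35 without replicates 1, 3 and 5, called in both cases.

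Other proteasome genes and Irf1 shared the split of Psmb8 within VAD WT. The mean of replicates 1, 3 and 5 divided by that of replicates 2 and 4 was 2.30 for Psmb8, 2.49 for Psmb9, another inducible subunit, and 2.29 for Psme2, a subunit of the proteasome activator PA28. It was 2.44 for Irf1, an interferon-induced transcription factor, and 1.60 for Psmb5, the subunit that Psmb8 replaces. For Tap1, the neighbour of Psmb8, it was 1.24. The ratio was 3.40 for the corneal Krt12, so the proteasome genes and Irf1 were higher in the VAD WT libraries in which Krt12 was higher. For the class II chains and Cd74 it lay between 0.840 (H2-Eb1) and 1.08 (H2-Ab1). Other genes split the same libraries, with ratios of 13.9 for Ddx3y, 0.0177 for Xist and, for the endothelium genes Plvap and Kdr, 0.338 and 0.195. The part of corneal RNA, sex or endothelium in these values was not tested. Across groups, the ratio of Psmb8 to Psmb5 reads was 0.690 to 0.873 in VAS WT, 0.477 to 0.567 in VAS Stra6-/- and 0.340 to 0.454 in the VAD Stra6-/- libraries. These 3 ranges did not overlap, and VAD WT, at 0.486 to 0.738, spanned 2 of them.

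**Figure D4:**
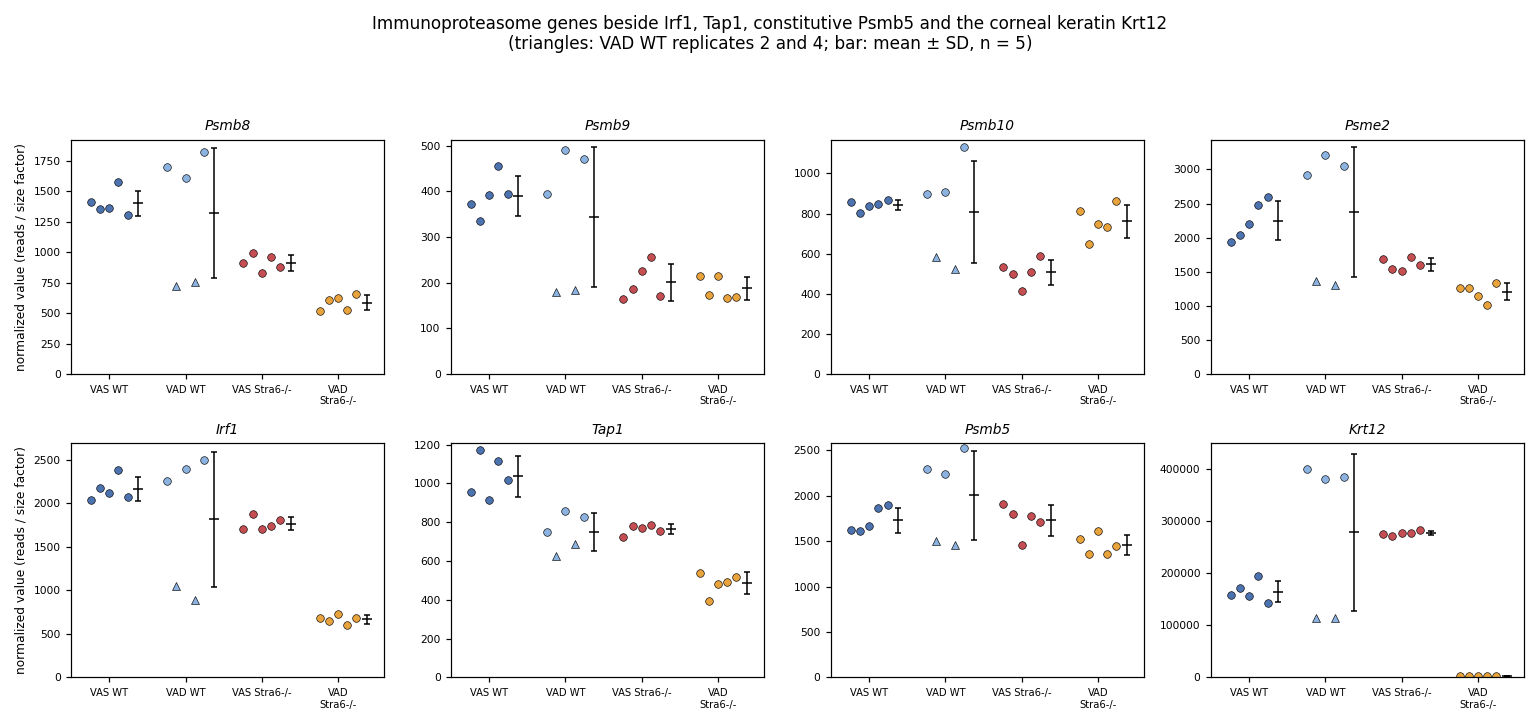
Normalized value (linear axes from 0) of Psmb8, Psmb9, Psmb10, Psme2, Irf1, Tap1, Psmb5 and Krt12 in each library, with the mean and SD of each group of 5 and VAD WT replicates 2 and 4 as triangles. The triangles lie below the other VAD WT points in every panel, and Krt12 is near 0 in the VAD Stra6-/- libraries.

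The class II chain genes lie side by side on chromosome 17. H2-Aa (chr17:34282744-34287823, minus strand) encodes the alpha chain of the I-A molecule. Its values were 1557, 1652, 1633, 1532 and 1826 in VAS WT, 1324, 1499, 1382, 1495 and 1500.0 in VAD WT and 1488, 1539, 1210.0, 1511 and 1439.9 in VAS Stra6-/-. In the VAD Stra6-/- libraries they were 3929, 3556, 3999, 3401 and 3709, all above every other library. The rise was 2.59-fold against VAS Stra6-/-, on the log2 scale 1.37 ± 0.0731 (adjusted p = 9.37e-13, limma), and 2.58-fold against VAD WT, on the log2 scale 1.37 ± 0.0731 (adjusted p = 1.09e-12, limma). Among the other groups, VAD WT lay below VAS WT without overlap but was not called (-0.19 ± 0.0731, adjusted p = 0.128, limma), and it was called at -0.23 without replicates 2 and 4 (adjusted p = 0.0242, limma). VAS Stra6-/- against VAS WT gave -0.19 ± 0.0731 (adjusted p = 0.0567, limma), which passed the threshold in 9 of 31 other settings.

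H2-Ab1 (chr17:34257689-34269419) encodes the beta chain that pairs with it. Its values were 1716, 1588, 1608, 1740.4 and 2024 in VAS WT and 1698, 1672, 1856, 1609 and 1773 in VAD WT. They were 1595, 1681, 1519, 1622 and 1597 in VAS Stra6-/- and 3299.6, 2878, 3224, 2951 and 3366 in the VAD Stra6-/- libraries. The first 3 groups overlapped, with VAS WT replicate 5 the highest among them, and the last group stood above them all. The log2 fold change was 0.97 ± 0.0691 (adjusted p = 1.08e-10, limma) against VAS Stra6-/- and 0.87 ± 0.0691 (adjusted p = 7.06e-10, limma) against VAD WT. It was not called in the other 2 comparisons, with 95% intervals of -0.25 to 0.03 for genotype on the VAS diet and -0.15 to 0.14 for diet in WT. The ratio of H2-Aa to H2-Ab1 reads was 0.745 to 1.04 in 15 libraries and 1.10 to 1.24 in the VAD Stra6-/- libraries. This difference between the partners was not tested.

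H2-Eb1 (chr17:34305867-34316674) encodes the beta chain of the I-E molecule. Mice of the b haplotype, such as C57BL/6, make no I-E because its alpha chain gene is defective, and H2-Ea-ps, the table's entry for that gene, named here after its values were seen, had 0 reads in all 20 libraries. The H2-Eb1 values were 1602, 1552, 1586, 1644 and 1646 in VAS WT and 1258, 1490.5, 1287, 1504 and 1229.6 in VAD WT. They were 1778, 1691, 1367, 1776 and 1624 in VAS Stra6-/- and 3618, 3310.4, 3749, 3317 and 3877 in the VAD Stra6-/- libraries. The last group was clear of all others, with a log2 fold change of 1.12 ± 0.0782 (adjusted p = 7.67e-11, limma) against VAS Stra6-/- and 1.40 ± 0.0782 (adjusted p = 2.06e-12, limma) against VAD WT. VAD WT lay below VAS WT without overlap, at -0.25 ± 0.0782 (adjusted p = 0.0485, limma), with replicates 2 and 4 the nearest to VAS WT. That call was lost in 21 of 31 other settings, among them without any 1 VAS WT library, with adjusted p of 0.0647 to 0.096 (limma), and without VAD WT replicate 1, 3 or 5, with 0.0977 to 0.111. It was -0.35 without replicates 2 and 4 (adjusted p = 0.000544, limma) and -0.10 without replicates 1, 3 and 5 (adjusted p = 0.4, limma).

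Cd74, the invariant chain gene, had values of 4753, 4488, 4863, 4491 and 4919 in VAS WT and 4118, 3931, 4363, 4195 and 4285 in VAD WT. They were 4289, 4256, 4298, 4338 and 4313 in VAS Stra6-/- and 8739, 8359, 8468, 8108 and 10156 in the VAD Stra6-/- libraries. Replicate 5 was the highest of that last group, and its lowest was above all 15 other libraries. The VAS Stra6-/- libraries were the most even, within 4256 to 4338, and lay between VAD WT, which they overlapped, and VAS WT, which they did not. The log2 fold change was 1.02 ± 0.0619 (adjusted p = 7.55e-12, limma) against VAS Stra6-/- and 1.07 ± 0.0619 (adjusted p = 4.2e-12, limma) against VAD WT. The lower level in VAD WT than in VAS WT was not called (-0.17 ± 0.0619, adjusted p = 0.0983, limma), nor was that in VAS Stra6-/- (-0.13 ± 0.0619, adjusted p = 0.137, limma). Both passed without either set of VAD WT replicates, with adjusted p of 0.0488 and 0.0398 without replicates 2 and 4 and of 0.0194 and 0.0456 without replicates 1, 3 and 5 (limma).

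Ciita (chr16:10480059-10528418), the class II coactivator gene, was too low to follow. It had 0 to 84 reads per library. Its normalized values were 30.4, 18.3, 8.75, 17.6 and 26.8 in VAS WT and 47.2, 26.8, 17.0, 19.7 and 0 in VAD WT. They were 21.3, 13.2, 31.5, 24.5 and 27.2 in VAS Stra6-/- and 22.2, 50.5, 31.7, 18.4 and 71.0 in the VAD Stra6-/- libraries, and all groups overlapped. No comparison was called with all libraries, and the log2 fold change of 1.36 ± 0.720 (adjusted p = 0.118, limma) against VAD WT passed only without VAD WT replicate 1 (adjusted p = 0.0413, limma). The log2 fold change of the VAD Stra6-/- libraries against VAS Stra6-/- was 0.58 with a 95% interval of -0.92 to 2.08, which holds both no change and a change as large as those of the class II chains, so a difference was not detectable at this depth. VAD WT replicate 5, with 0 reads, set the sign against VAS WT, which was -0.52 with it and 0.42 without it (limma, not called).

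Macrophage genes rose together with the class II genes. Of 14 macrophage and microglia markers, 13 were higher and 1 lower in the VAD Stra6-/- libraries than in VAS Stra6-/-, with a median log2 fold change of 1.19, where 24.4% of all genes were higher and 28.8% lower. Csf1r, the receptor for the macrophage growth factor CSF1, differed by 1.76 ± 0.0924 (adjusted p = 7.7e-13, limma) and the mannose receptor gene Mrc1 by 2.10 ± 0.113 (adjusted p = 1.22e-12, limma). The marker that fell was Itgam, the CD11b integrin chain, which ranged over 1945 to 2241 in VAS Stra6-/- and over 156 to 194 in the VAD Stra6-/- libraries (-3.59 ± 0.125, adjusted p = 9.27e-16, limma). The summed level of the 14 markers was 7823 to 11928 in the other 15 libraries and 23007 to 24037 in the VAD Stra6-/- libraries, and no marker had a mean of 0 in any group. The pan-leukocyte gene Ptprc differed by 1.24 ± 0.209 (adjusted p = 3.31e-05, limma). Dendritic cell markers summed to 316 to 473 and to 697 to 819, and of 10 only Itgax was called (1.67 ± 0.185, adjusted p = 1.04e-07, limma). B cell markers summed to 19.5 to 72.6 and to 36.4 to 52.3. T cell markers summed to 90.8 to 185 and to 174 to 192. Of these 6 genes 1, Cd8a, was called, higher, and their median log2 fold change was -0.33. The part of these cells in the class II difference was not tested.

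Set against 4 macrophage genes, the class II genes were not higher in these libraries. Cd74 divided by the sum of C1qa, C1qb, C1qc and Csf1r was 0.812 to 0.919 in VAS WT, 0.807 to 0.905 in VAS Stra6-/- and 0.937 to 1.09 in VAD WT. It was 0.599 to 0.714 in the VAD Stra6-/- libraries, below every other library. For H2-Ab1 the same ratio was 0.299 to 0.457 in 15 libraries and 0.210 to 0.240 in the VAD Stra6-/- libraries. For H2-Eb1 it was 0.282 to 0.371 and 0.242 to 0.273. For H2-Aa, at 0.255 to 0.369 and 0.252 to 0.285, the ranges overlapped. VAD WT had the highest ratios of Cd74 and H2-Ab1, with no overlap with the other groups, and its macrophage sum was the lowest, at 3763 to 4362 against 4747 to 5641 in both VAS groups. Of the 14 macrophage markers 10 were lower and none higher in VAD WT than in VAS WT, where 5.50% of all genes were lower, with a median of -0.44, and the summed level of all 14 was 7823 to 8639.8 in the 5 VAD WT libraries and 11302 to 11928 in VAS WT. These ratios depend on the macrophage genes chosen and are a description, without a test. From VAS Stra6-/- to the VAD Stra6-/- libraries, the median summed value of the 4 genes went from 4892 to 13764. That of all 14 markers went from 10800 to 23290, or from 8535 to 23051 without Itgam and Cx3cr1. That of the class II chains with Cd74 went from 9149 to 19441.

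**Figure D5:**
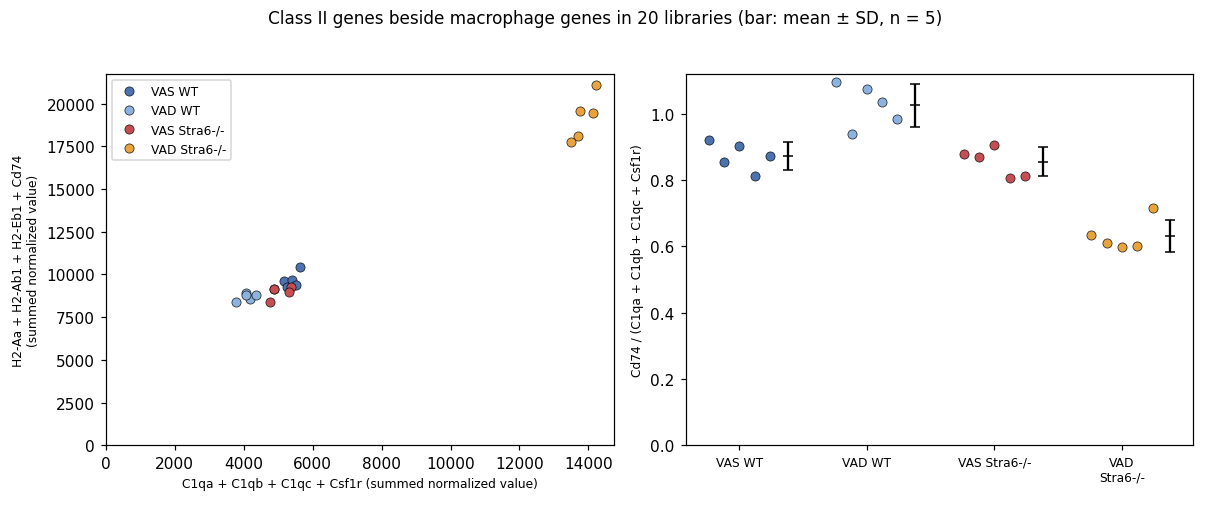
Left, the summed normalized value of H2-Aa, H2-Ab1, H2-Eb1 and Cd74 against that of C1qa, C1qb, C1qc and Csf1r, 1 point per library. Right, Cd74 divided by the same 4 macrophage genes, with mean and SD of 5 libraries per group. The class II sum was 17777 to 21108 in the VAD Stra6-/- libraries and 8393 to 10416 elsewhere, and the ratio was lowest in the former.

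The rest of the class II pathway was measured with a list of 10 genes. In the VAD Stra6-/- libraries against VAS Stra6-/-, 5 rose and none fell, with a median of 0.99, and a share of 53.2% of all genes was called, 24.4% up. Ctss, the cathepsin that trims the invariant chain, ranged over 1416 to 1518 in VAS Stra6-/- and over 5159.6 to 5632 in the VAD Stra6-/- libraries, a difference of 1.89 ± 0.154 (adjusted p = 9.68e-10, limma). H2-DMa and H2-DMb1, the chains of the peptide editor H2-DM, differed by 1.14 ± 0.156 (adjusted p = 2.33e-06, limma) and by 1.35 ± 0.120 (adjusted p = 4.06e-09, limma). The asparaginyl endopeptidase gene Lgmn differed by 0.97 ± 0.0809 (adjusted p = 1.44e-09, limma) and the lysosomal thiol reductase gene Ifi30 by 0.57 ± 0.103 (adjusted p = 7.19e-05, limma). H2-DMb2, H2-Oa, H2-Ob and H2-Eb2 had group means under 30 and were not called, and the ubiquitin ligase gene March1 was not called at -0.30. In VAS Stra6-/- against VAS WT H2-DMa and H2-DMb1 were the 2 of 10 that were called, at -0.52 ± 0.156 (adjusted p = 0.0167, limma) and -0.40 ± 0.120 (adjusted p = 0.018, limma). In VAD WT against VAS WT only Ctss was called (-0.67 ± 0.154, adjusted p = 0.007, limma), and its highest VAD WT values were in replicates 2 and 4. Over all genes 26.6% were called in the former comparison and 8.78% in the latter.

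The other class I chains were mostly low and level. Of 14 listed, 1 rose and 1 fell in the VAD Stra6-/- libraries against VAS Stra6-/-, with a median of -0.08, against 53.2% of all genes called. H2-M3, which presents formylated peptides, differed by 0.84 ± 0.203 (adjusted p = 0.00138, limma) and Mr1, which presents vitamin B metabolites, by -0.67 ± 0.110 (adjusted p = 2.34e-05, limma). H2-T23, the mouse Qa-1 gene, with the highest values among them, had means of 1651 ± 46.3 in VAS WT and 1587 ± 118 in the VAD Stra6-/- libraries (SD, n = 5) and was called in no comparison. The genes of the H2-Q and H2-T clusters are close copies of each other, and how reads were shared between them is not known here.

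Genes of peptide loading in the endoplasmic reticulum were higher in the libraries in which Tap1 was lowest. Of 7 listed, 4 rose and 1 fell in the VAD Stra6-/- libraries against VAS Stra6-/-, with a median of 0.35, where 53.2% of all genes were called and 24.4% rose. The disulphide isomerase gene Pdia3 differed by 0.94 ± 0.0650 (adjusted p = 6.33e-11, limma), calnexin (Canx) by 0.56 ± 0.0834 (adjusted p = 7.45e-06, limma), calreticulin (Calr) by 0.49 ± 0.0654 (adjusted p = 1.8e-06, limma) and the trimming peptidase gene Erap1 by 0.35 ± 0.103 (adjusted p = 0.00645, limma). Of these, Pdia3, Canx and Calr also serve the folding of many other glycoproteins. Tap2 and tapasin (Tapbp), which serve class I alone, were not called, at 0.07 and -0.05, and the tapasin-related Tapbpl was lower (-0.50 ± 0.161, adjusted p = 0.012, limma). Of the 4 other inducible proteasome genes, Psmb10 was higher (0.58 ± 0.156, adjusted p = 0.00324, limma) and Psmb9, Psme1 and Psme2 were not called, at -0.08, -0.17 and -0.42. In VAS Stra6-/- against VAS WT, Psmb9 and Psmb10 were lower, as Psmb8 was, at -0.97 ± 0.239 (adjusted p = 0.00437, limma) and -0.74 ± 0.156 (adjusted p = 0.00121, limma). Tap2 differed by -0.29 ± 0.0718 (adjusted p = 0.00426, limma). The constitutive counterparts Psmb5, Psmb6 and Psmb7 were not called (adjusted p = 0.991, 0.353 and 0.863, limma).

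Most regulators of MHC transcription were lower in the VAD Stra6-/- libraries. Of 14 regulators, 1 rose and 10 fell against VAS Stra6-/-, with a median of -0.30, where 28.8% of all genes fell. Irf1, which drives class I and Psmb9 and Tap1 transcription after interferon, stood at 1705 to 1872 in VAS Stra6-/- and at 598 to 729.8 in the VAD Stra6-/- libraries (-1.41 ± 0.208, adjusted p = 6.26e-06, limma). The NF-Y subunit gene Nfya differed by -1.03 ± 0.105 (adjusted p = 3.11e-08, limma). The NF-Y subunit gene Nfyc was higher (0.31 ± 0.0796, adjusted p = 0.00225, limma). The genes of the kinases Jak1 and Jak2 differed by -0.58 ± 0.0729 (adjusted p = 6.87e-07, limma) and -0.50 ± 0.0902 (adjusted p = 6.75e-05, limma). Nlrc5, the class I counterpart of Ciita, was not called there (0.19) and was lower in VAS Stra6-/- than in VAS WT (-0.96 ± 0.257, adjusted p = 0.00795, limma), at 47.8 to 70.9 against 90.7 to 162. In that comparison 5 regulators rose, Rfxap, Irf2, Ifngr1, Jak1 and Jak2, and Nlrc5 was the 1 that fell. Of all genes 15.9% rose and 10.8% fell there.

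Markers of other tissue moved with these results and their part was not tested. Against VAS Stra6-/-, the VAD Stra6-/- libraries had all 10 surface epithelium and cornea markers lower, with a median of -5.09 and a summed level of 24693 to 32210.3 against 881703 to 916069.8. Of 8 RPE markers 7 were higher, with a median of 2.06, and of 6 endothelium markers 4 were higher, with a median of 0.81. Of all genes 24.4% were higher and 28.8% lower there. In VAS Stra6-/- against VAS WT, 4 of the 10 corneal markers and all 6 skeletal muscle markers were higher, and 1 corneal marker was lower. Of all genes 15.9% were higher and 10.8% lower there. In VAD WT against VAS WT, 6 of the 8 RPE markers, 3 of the 6 muscle markers and 2 of the 10 corneal markers were lower. Their medians were -0.98, -1.01 and 0.17, none of these markers was called higher, and 5.50% of all genes were lower. Krt12 in the 2 VAD WT replicates that stand apart was 113908 and 114762, the lowest outside the VAD Stra6-/- libraries, and Tap1, Psmb8, Psmb9 and Irf1 were low in the same libraries.

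The diet effect differed between the genotypes for the genes that rose. The difference in effect, the change from VAS to VAD in Stra6-/- less that in WT, was 1.56 ± 0.103 (adjusted p = 8.39e-11, limma) for H2-Aa and 1.37 ± 0.111 (adjusted p = 1.69e-09, limma) for H2-Eb1. It was 1.33 ± 0.109 (adjusted p = 2.32e-09, limma) for B2m, 1.19 ± 0.0876 (adjusted p = 4.03e-10, limma) for Cd74 and 0.98 ± 0.0977 (adjusted p = 4.24e-08, limma) for H2-Ab1. For H2-K1 it was 0.33 ± 0.0819 (adjusted p = 0.0023, limma), which combined a fall in WT with no called change in Stra6-/-. For Tap1, Psmb8 and Ciita the difference was not called, at -0.19, -0.45 and 1.10, and that of Tap1 passed without VAD WT replicates 2 and 4 (adjusted p = 0.0369, limma). That of Psmb8 passed without VAD WT replicate 2 (adjusted p = 0.0332, limma) or replicate 4 (0.0457). It was -0.93 without VAD WT replicates 2 and 4 (adjusted p = 3.73e-07, limma) and 0.27 without replicates 1, 3 and 5 (adjusted p = 0.0692, limma).

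Among 12290 other genes with a mean value of at least 100, those most like the mean log2 profile of H2-K1, H2-D1 and B2m over the 20 libraries were Krt18, with r = 0.992, Clu, with 0.991, Trf, with 0.991, Adra2c, with 0.990, and Cd63, with 0.990. The step of that profile in the VAD Stra6-/- libraries came from B2m, at 1.18 against VAS Stra6-/-, while H2-D1 was at -0.21 and H2-K1 at 0.13, not called. Those most like the mean profile of H2-Aa, H2-Ab1, H2-Eb1 and Cd74 were Adi1, with r = 0.991, Pdia6, with 0.989, Acsl6, with 0.987, Decr1, with 0.987, and Mdh1, with 0.984. Clu, which encodes clusterin, went from a mean of 33218 in VAS Stra6-/- to 115515 in the VAD Stra6-/- libraries, and Trf, the transferrin gene, from 29655 to 317079.8. None of these 10 genes was in the lists of macrophage, dendritic or MHC genes. All of these values rest on the same step between the VAD Stra6-/- libraries and the other 15, so they are a description of 20 libraries and not a set of independent relations.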

How the data were processed

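The deposited table held a signal per gene and library. By their methods, the authors aligned 150 bp paired reads of oligo(dT)-selected RNA to the mouse genome (GRCm38) with STAR, counted them with RSEM and divided the counts by a DESeq2 size factor (STAR 2.5.3a, RSEM 1.2.30 and DESeq2 1.32.0 per the submitters' processing notes). Division by the smallest value above 0 gave whole reads in all 20 libraries. VAD Stra6-/- replicate 1, with a size factor of 0.993 and so a step near 1, was left out of the count tests (edgeR 4.0.16, DESeq2 1.42.0). The main test was limma 3.58.1 in R 4.3.3, with a trend in the variance, on log2(value + 1) with 1 mean for each of 4 groups over 20 libraries. It covered 18807 genes with at least 5 reads in total. Libraries held 13331903 to 21878614 reads, median 17785927. Standard errors and intervals are for differences between group means and use 1 spread per gene, pooled over the 4 groups. The genes named are the 10 genes, the listed pathway and marker genes and the 5 genes most like each profile. The genes and lists were chosen with earlier results of these data known. Some listed genes are not reported here. Promoters came from RefSeq tables and gene positions from GENCODE vM21. In simulated counts for VAS Stra6-/- against VAS WT (18174 genes, 200 changed by 1 on the log2 scale), limma recovered 197 with 13 false calls and edgeR recovered 198 with 14. Same-numbered libraries of different groups were not paired: the correlation of their deviations lay between -0.0686 and 0.0654 over 30 pairs.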

Additional observations from a re-analysis of the deposited data

Results flagged for a closer look

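For 6 of the 10 genes the change from VAS to VAD differed between the genotypes in a test of that difference (limma interaction term, Stra6-/- change less WT change, log2 scale ± standard error). It was 1.56 ± 0.103 (adjusted p = 8.39e-11, limma) for H2-Aa, 1.37 ± 0.111 (adjusted p = 1.69e-09, limma) for H2-Eb1 and 1.33 ± 0.109 (adjusted p = 2.32e-09, limma) for B2m. It was 1.19 ± 0.0876 (adjusted p = 4.03e-10, limma) for Cd74, 0.98 ± 0.0977 (adjusted p = 4.24e-08, limma) for H2-Ab1 and 0.33 ± 0.0819 (adjusted p = 0.0023, limma) for H2-K1. For the first 5 of these genes every VAD Stra6-/- library was above every other library, and for H2-K1 the VAD Stra6-/- libraries overlapped both VAS groups. The same test called 44.2% of all genes. Among the 40 sets of 5 libraries (10 genes in 4 groups), no library stood apart from the other 4 by Dixon's test, which flags about 1 set in 20 by chance.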

How the results depend on the processing

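Of the 10 genes, 2 were called between VAS Stra6-/- and VAS WT, where 5010 of the 18807 genes tested were called. Without VAD WT replicates 2 and 4 the count was 4 (7524 of all genes). Without replicates 1, 3 and 5, a setting chosen after seeing the data, it was 4 (7913 of all genes). VAD WT enters this comparison only through the pooled spread. Leaving out 1 library gave 1 to 3, with 1 without VAS Stra6-/- replicate 3 (4282 of all genes) or replicate 5 (4361). Between VAD WT and VAS WT 4 were called, where 1652 of all genes were called. The count was 2 with edgeR (1529 of all genes) and 1 with only the groups compared (639). It was 2 with a replicate block (1446) and 8 without VAD WT replicates 2 and 4 (7124). Leaving out 1 library gave 2 to 5, with 2 without VAS WT replicate 2 (1320 of all genes), VAS WT replicate 3 (1288) or VAD WT replicate 3 (1415). Apart from that change in the pooled spread, the cause of the moved counts was not tested. The other 3 comparisons gave 8 to 9, 8 to 9 and 6 to 8 calls, and the replicate block moved no count there. The numbers did not pair the libraries, of which 6 of 20 correlated best with their own number.

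Of 1540 values of single genes under another setting, 1462 kept direction and side of the threshold, 29 gained a call, 31 lost it and 18 turned direction, of which 1 was called, Psmb8 in VAD WT against VAS WT. H2-D1 in VAS Stra6-/- against VAS WT was -0.000483 with edgeR and -0.000880 with TMM scaling, H2-D1 in the VAD Stra6-/- libraries against VAD WT was -0.0515 without VAD WT replicates 1, 3 and 5, and its difference in diet effect was -0.0752 there and -0.00406 to 0.0386 with 1 library left out. In VAD WT against VAS WT, B2m was 0.0218 without replicates 1, 3 and 5, Psmb8 was 0.29 and H2-Ab1 0.0376 without replicates 2 and 4, and H2-Ab1 was -0.0384 to 0.0492 with 1 library left out. Ciita there was 0.13 with edgeR, 0.13 with DESeq2, 0.28 without replicates 1, 3 and 5 and -0.97 to 0.42 with 1 library left out. The difference in diet effect of Psmb8 was 0.27 without replicates 1, 3 and 5. Depth limited Ciita alone of the 10 genes, with 0 to 84 reads per library.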

Other observations

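Costimulatory genes, which T cells need beside the MHC signal, did not all go one way. Of 6 listed, Cd40 (1.58 ± 0.420, adjusted p = 0.00313, limma) and Cd86 (0.96 ± 0.219, adjusted p = 0.000817, limma) were higher in the VAD Stra6-/- libraries than in VAS Stra6-/-, and Icosl (-1.94 ± 0.127, adjusted p = 2.62e-11, limma) and Cd274 (-0.68 ± 0.0859, adjusted p = 7.63e-07, limma), the gene of the inhibitory ligand PD-L1, were lower (log2 fold change ± standard error). The values of Cd274 ranged over 721 to 843 in VAS Stra6-/- and 424 to 516 in the VAD Stra6-/- libraries, and those of Cd86 over 60.4 to 87.4 and 128 to 175. The median of the 6 genes was -0.04, against -0.07 over all genes, of which 53.2% were called.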
